A study of Mus musculus with 59 samples.

Results

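Car4, Wt1 and Tmem54 are 3 of the 24391 genes listed for each of 59 RNA-seq libraries from mouse embryonic stem cells (ESCs) and embryoid bodies (EBs), the suspended aggregates that ESCs form when they start to differentiate. They were chosen by their measured RNA levels, as the genes with the highest rises between control ESCs and control EBs of the Pcgf1 line once signalling genes were set aside. Because these values chose them, the control ESC to control EB difference in this line is given below as a description and not as a result. ESCs were kept on mouse embryonic fibroblast feeders with LIF and the inhibitors SU5402, PD184352 and CHIR99021, and EBs were cultured without these for 2 days on low attachment dishes. All lines carry ERT2-Cre, and 4-OHT turns the control genotype of a line into its mutant genotype. The Pcgf1 line (Pcgf1f/f without and Pcgf1delta/delta with 4-OHT, here called control and KO) has 4 control ESC, 5 KO ESC, 5 control EB and 5 KO EB libraries. The Ring1A-pm; Ring1B-cpm line is Ring1apm/pm throughout, controls included. Its mutant libraries are also Ring1bpm/pm, and pm denotes a point mutation that removes the ubiquitin ligase activity of the RING1 proteins. The Ring1A/B line is Ring1a-/- throughout and its mutant libraries are Ring1bdelta/delta. The Pcgf2/4, Pcgf3/5 and Pcgf6 lines lose the PCGF genes they are named for. These 5 lines have 8 libraries each, 2 for each combination of stage and state. Nothing in the labels says that replicates came from separate cultures, so p-values measure the spread between these libraries, which may be technical.

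PRC1 is a chromatin complex that places ubiquitin on histone H2A through RING1A or RING1B, and each of its forms holds 1 PCGF protein. It keeps many developmental genes off in ESCs. On leaving the naive state, ESCs lose naive pluripotency factors and gain genes of the formative epiblast. Car4 encodes carbonic anhydrase 4, an enzyme tethered to the outer face of the plasma membrane by a lipid anchor, which interconverts carbon dioxide and bicarbonate. Wt1 encodes a zinc finger transcription factor known for its role in the developing kidney, gonad and mesothelium, and for mutations in Wilms tumour. Tmem54 encodes a transmembrane protein about which little is known.

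In the NCBIM37 (mm9) genome, Car4 (ENSMUSG00000000805.11) spans chr11:84771288-84779546, Wt1 (ENSMUSG00000016458.6) spans chr2:104966686-105013773, and Tmem54 (ENSMUSG00000028786.9) spans chr4:128782792-128788870. All 3 lie on the plus strand, and the first listed transcripts have 8 exons for Car4, 10 for Wt1 and 6 for Tmem54. Promoter windows are shown for Car4 and Tmem54 to describe the start sites of the members, and the RefSeq table used held 2 of the 3 genes, without Wt1. Each window runs from 250 bases before to 50 bases after the RefSeq start site. The RefSeq windows are from GRCm38.p6, and each was found once, letter for letter, on its chromosome in NCBIM37, on the plus strand at chr11:84771006-84771305 for Car4 and chr4:128782524-128782823 for Tmem54. Capitals mark CpG dinucleotides.
Car4: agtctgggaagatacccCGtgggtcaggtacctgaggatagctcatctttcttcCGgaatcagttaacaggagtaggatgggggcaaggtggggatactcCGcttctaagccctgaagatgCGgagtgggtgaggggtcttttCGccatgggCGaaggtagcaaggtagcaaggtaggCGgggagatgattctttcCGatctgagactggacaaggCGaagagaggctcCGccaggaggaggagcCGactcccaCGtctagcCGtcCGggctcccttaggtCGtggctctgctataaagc
Tmem54: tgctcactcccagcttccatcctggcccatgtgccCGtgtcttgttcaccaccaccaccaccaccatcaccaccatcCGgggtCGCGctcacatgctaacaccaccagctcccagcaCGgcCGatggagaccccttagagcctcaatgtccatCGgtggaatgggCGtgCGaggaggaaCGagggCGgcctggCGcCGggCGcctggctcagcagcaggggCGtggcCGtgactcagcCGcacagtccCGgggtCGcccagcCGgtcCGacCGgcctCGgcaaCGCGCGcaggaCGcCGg
The Tmem54 window held 28 CpG dinucleotides, more than 85.8% of the 32851 windows of the same length in the table. The Car4 window held 15, more than 65.4% of them, and the median window held 7. The GC content was 69.0% for Tmem54 and 57.3% for Car4, against a median of 52.7%. Each window was searched on both strands for TATAAA (the core of the TATA box), for CCAAT (the box of that name), for GGGCGG (the GC box), for GCGTGGGCG (the site of EGR factors) and for GCGTGGGAG (a site of WT1). TATAAA occurred once in the Car4 window, downstream of the start site at position 43, and 13.62% of all windows hold it. GGGCGG occurred once in the Tmem54 window, 68 bases before the start site, and 35.66% of all windows hold it. CCAAT, the EGR letters and the WT1 letters, which 37.41%, 0.61% and 0.47% of all windows hold, were in neither window. A match is a description of the letters and not of a bound site.

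Values are TPM, read numbers scaled for transcript length and library total, so levels can be set side by side between genes. The stage of each library was checked with a stage score, the mean log2(TPM + 0.1) of 7 formative epiblast markers less that of 10 naive markers. In the Pcgf1 and Ring1A-pm; Ring1B-cpm lines the score lay between -5.99 and -4.32 in the 13 ESC libraries and between -2.57 and 3.66 in the 14 EB libraries. In the other 4 lines, 21 of 32 libraries carry a deposited name that gives another condition than the label does, 14 of them another stage. By label the scores of these 4 lines overlapped, from -5.84 to 1.83 in libraries labelled ESC and from -5.79 to 1.20 in libraries labelled EB. By deposited name they lay between -5.84 and -4.69 for ESC and between -1.63 and 1.83 for EB. Pcgf1 transcripts were at 7.30 to 16.6 TPM in control and 0.627 to 2.77 TPM in KO libraries of the Pcgf1 line. Rnf2, which encodes RING1B, was at 54.5 to 64.6 TPM in point mutant and 66.6 to 85.8 TPM in control libraries, and a transcript level does not check a point mutation. Sequencing depth is unknown. A library listed 6039 to 9139 genes at 0, and a member listed at 0 may have been present below what was sampled.

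In ESCs of the Pcgf1 line all 3 genes were near or at 0. Car4 was listed at 0.516, 0.327, 0 and 0.686 TPM in control ESC replicates 1 to 4, Wt1 at 0, 0.137, 0.184 and 0.0525 TPM, and Tmem54 at 0, 0, 0.486 and 0.347 TPM. In control EBs, Car4 was at 96.7, 72.2, 73.3, 82.7 and 83.4 TPM in replicates 1 to 5. Car4 thus varied little among control EBs, with a mean of 81.7 ± 9.85 TPM (SD, n = 5). Wt1 in the same EB libraries was at 19.01, 45.2, 43.8, 21.8 and 25.2 TPM, a mean of 30.99 ± 12.5 TPM. Tmem54 was at 23.7, 42.7, 44.2, 15.5 and 18.2 TPM, a mean of 28.9 ± 13.6 TPM. Replicates 2 and 3 were the highest EBs for Wt1 and Tmem54 and the lowest for Car4. These 2 replicates share a series of sample identifiers in the deposited column headers. Replicate 1 has another series, and replicates 4 and 5 share a further one. The order in control EBs was Car4 first, with its lowest library above the highest of the others, while the ranges of Wt1 and Tmem54 overlapped. In bulk samples, fewer cells expressing a gene and less RNA per cell cannot be told apart.

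The fitted control EB less control ESC difference on the log2(TPM + 0.1) scale was 7.74 for Car4, 7.35 for Wt1 and 6.87 for Tmem54. Of the 20594 genes tested in this line, 11.5% were called higher and 13.4% lower in control EBs by limma (adjusted p under 0.05), and nothing is read from the members' place among them because it defined them. Just outside the members in the same ranking stood the signalling genes Fgf5, at 7.58 in the second place, and Wnt8a, at 6.80 in the fifth. The next 3 genes were 2610528J11Rik at 6.66, Vrtn at 6.64 and Bcl11a at 6.47. Because 0.1 is added to every value, these differences understate the change of genes that are near 0 in ESCs.

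**Figure D1:**
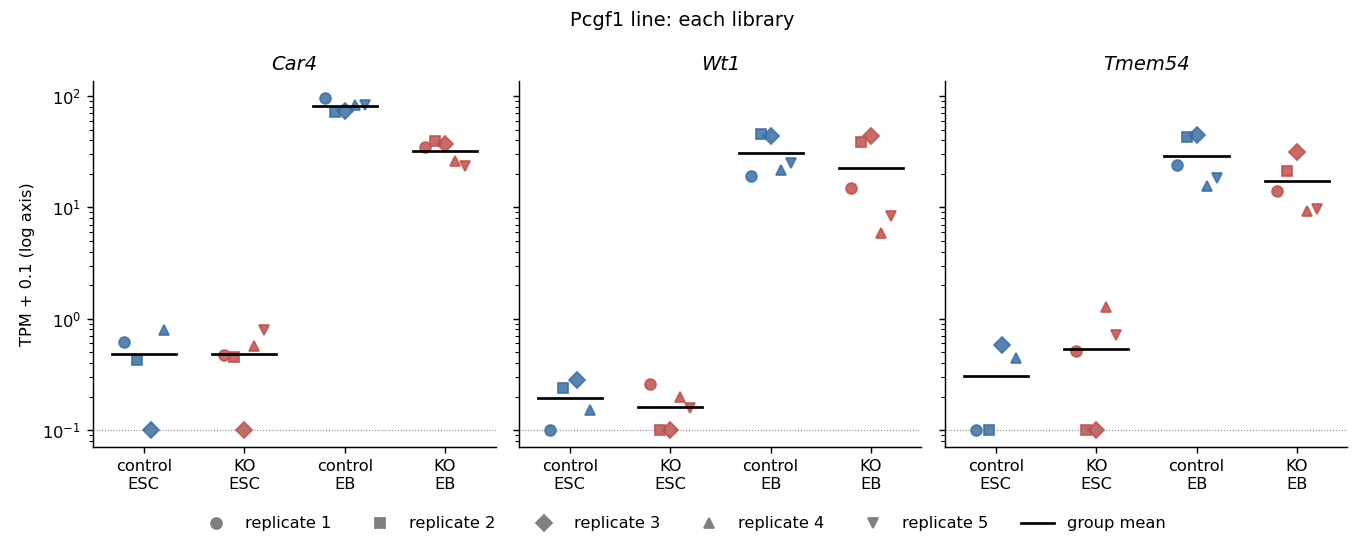
Level of Car4, Wt1 and Tmem54 in each of the 19 libraries of the Pcgf1 line. The vertical axis is TPM + 0.1 on a log axis, points are libraries with replicate numbers as symbols, and black bars are group means. All EB libraries lie above all ESC libraries for each gene, and Car4 is lower in each KO EB library than in every control EB library.

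The KO libraries of the Pcgf1 line were not used to choose the genes, and they ask whether the rise also takes place without PCGF1. All 3 genes rose strongly from KO ESCs to KO EBs, and the groups did not overlap for any of them. The share of all genes that separate groups without overlap is not given, here or below, so nothing is read from a lack of overlap alone. Car4 was at 35.1, 39.0, 37.0, 26.1 and 23.2 TPM in KO EB replicates 1 to 5 and at 0.374, 0.356, 0, 0.465 and 0.693 TPM in KO ESCs. Its difference was 6.32 ± 0.52 on the log2 scale (SE, limma adjusted p = 1.46e-07). Wt1 was at 14.9, 38.5, 43.7, 5.84 and 8.34 TPM in KO EBs and at 0.157, 0, 0, 0.0978 and 0.0582 TPM in KO ESCs. Wt1 thus ranged more widely among KO EBs than Car4 did, with the same 2 replicates on top as in controls. Its difference was 6.78 ± 0.52 (SE, limma adjusted p = 8.77e-08). Tmem54 was at 13.9, 21.3, 31.4, 9.24 and 9.62 TPM in KO EBs and at 0.416, 0, 0, 1.16 and 0.617 TPM in KO ESCs. Its difference was 5.49 ± 0.71 (SE, limma adjusted p = 2.08e-05). All 3 of 3 genes were called higher, where 8.13% of the 20594 genes tested were called higher and 10.2% lower. KO EBs exceeded KO ESCs in all 5 pairs of equal number, and an exact two-sided permutation test over the 10 libraries, taken as independent, gave p = 0.00794 for each gene, the smallest it allows (0.0179 after Benjamini-Hochberg adjustment over 9 such tests). The feeder fibroblast marker sum moved the other way, from 172 to 252 TPM in KO ESCs down to 16.4 to 34.2 TPM in KO EBs, and its part in the rises was not tested.

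Loss of PCGF1 left the ESC level low. The control ESCs took part in the choice of the genes, so a comparison with them is not independent of it. KO less control ESC differences were 0.06 ± 0.55 for Car4, -0.24 ± 0.55 for Wt1 and 0.60 ± 0.75 for Tmem54 on the log2 scale. None of the 3 genes was called by limma (adjusted p from 0.957 to 1, and none at an unadjusted p under 0.05), where 0.32% of all genes were called higher and 0.32% lower. The 95% confidence intervals, -1.09 to 1.21 for Car4, -1.40 to 0.92 for Wt1 and -0.98 to 2.17 for Tmem54, leave room for changes of a log2 unit or more at these low levels.

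In EBs, Car4 was lower in every KO library, at 23.2 to 39.0 TPM, than in every control library, at 72.2 to 96.7 TPM. The ratio of KO to control means was 0.393. The control EB libraries in this comparison are the ones in which the genes were chosen for being high. That choice favours lower values in KO EBs, so the p-values and calls below are not independent evidence of a KO effect. The limma difference was -1.37 ± 0.52 (SE), with an adjusted p of 0.240 and an unadjusted p of 0.0164, so Car4 was not called in the fit over all 4 groups, where 0.874% of genes were called lower and 1.08% higher. It was called when only the EB groups entered the fit (-1.37, limma adjusted p = 0.0152) and with a pseudocount of 1 (-1.34, adjusted p = 0.00111). The exact two-sided permutation test over the 10 EB libraries gave p = 0.00794, the smallest it allows (0.0179 adjusted over 9 tests). It took the 10 libraries as independent, although same-numbered ones deviated together. Within pairs of equal number, the KO library held 0.363, 0.540, 0.505, 0.316 and 0.279 of the control's Car4 TPM in replicates 1 to 5. The direction was thus shared by all 5 pairs and by each series of identifiers. Same-numbered libraries deviated together from their group means, as some differently numbered ones did. Blocking on replicate number gave a limma adjusted p of 0.0595 for the same difference.

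Wt1 and Tmem54 were lower in KO EBs in 5 of 5 pairs of equal number as well, but their ranges overlapped those of controls. Equal numbers are not shown to mark matched cultures, and the Wt1 values of replicate 3 were nearly equal. The control libraries here are those that chose the genes. These comparisons and the ESC to EB changes below are thus not independent of the choice, which favours lower KO values. For Wt1 the KO less control EB difference was -0.81 ± 0.52 (SE, limma adjusted p = 0.657, exact permutation p = 0.238). The pairs were uneven, with KO to control ratios of 0.785, 0.853 and 0.998 in replicates 1 to 3 and of 0.268 and 0.331 in replicates 4 and 5. For Tmem54 the difference was -0.78 ± 0.71 (SE, limma adjusted p = 0.786, exact permutation p = 0.135), and the ratios lay between 0.499 and 0.711. The EB less ESC change in KO less that in control was -1.43 ± 0.75 for Car4, -0.57 ± 0.76 for Wt1 and -1.38 ± 1.03 for Tmem54. None of these was called by limma (adjusted p from 0.928 to 0.989, none at an unadjusted p under 0.05), and only 1 of 20594 genes was (0.00486% lower and 0.0% higher). The stage score moved with these values. It was 2.24, 3.15, 3.66, 1.36 and 1.44 in control EB replicates 1 to 5 and 0.72, 1.97, 2.56, -1.06 and -0.93 in KO EBs, lower in KO in 5 of 5 pairs and lowest in the 2 KO libraries with the least Wt1. Other marker lists moved between the same EB groups, where 0.874% of all genes were called lower and 1.08% higher. The 12 feeder fibroblast markers summed to 50.01 to 98.2 TPM in control EBs and to 16.4 to 34.2 TPM in KO EBs, without overlap, 2 of 12 were called lower by limma, and Lum was listed at 0 in all KO EBs. Of 10 primitive and visceral endoderm markers, 3 were called higher in KO EBs, and their sums overlapped, at 10.2 to 24.0 TPM in control and 11.5 to 29.8 TPM in KO EBs, with Afp listed at 0 in both groups. The part of stage, feeders and endoderm in the KO differences of Car4, Wt1 and Tmem54 was not tested.

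**Figure D2:**
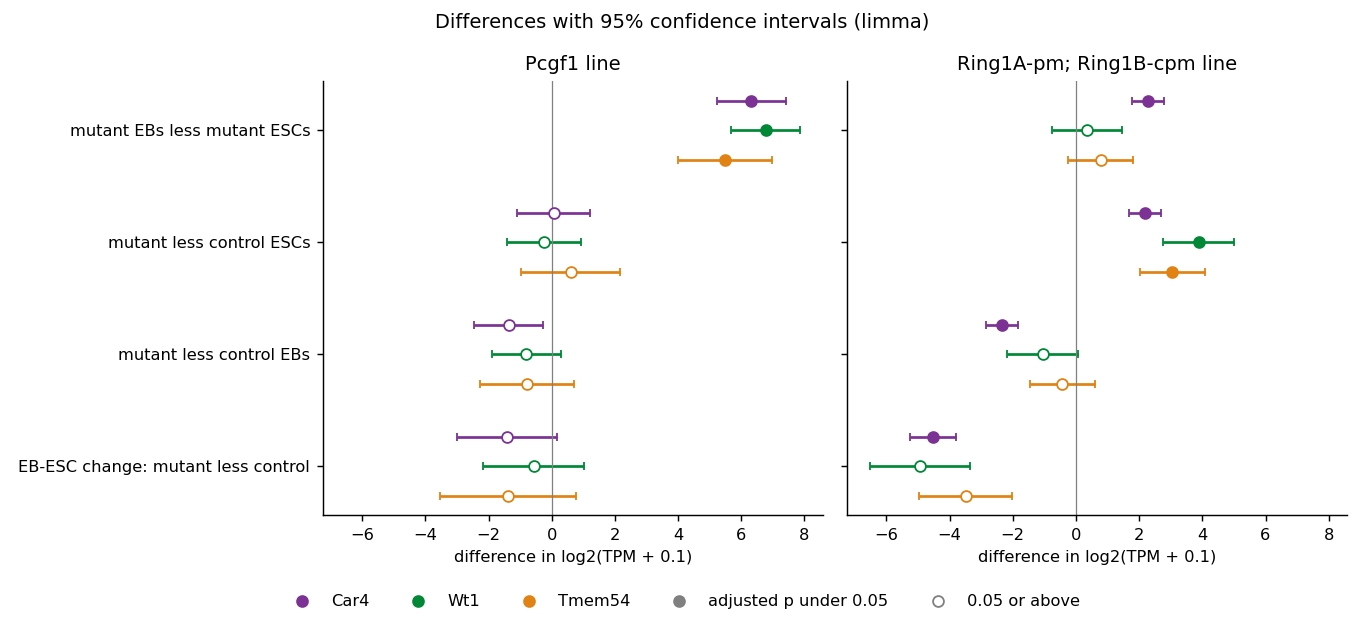
Differences on the log2(TPM + 0.1) scale, the horizontal axis, in the Pcgf1 line and the Ring1A-pm; Ring1B-cpm line for 4 comparisons. In the Pcgf1 line, all but the first use the control libraries in which the genes were chosen. Points are limma estimates, bars are 95% confidence intervals, and filled points have an adjusted p under 0.05. In the Pcgf1-KO all 3 genes are called higher in EBs than in ESCs. In the point mutant line all 3 are called higher in mutant than in control ESCs, and Car4 is the 1 called lower in mutant than in control EBs.

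The Ring1A-pm; Ring1B-cpm line asks what follows when PRC1 is present but its RING1 proteins cannot ubiquitinate H2A. In its controls, which took no part in the choice of genes, all 3 genes rose from ESCs to EBs. Car4 was at 0.892 and 0.843 TPM in control ESCs and at 125.1 and 92.8 TPM in control EBs, a difference of 6.80 ± 0.22 (SE, limma adjusted p = 6.95e-05), the highest of the 20279 genes tested in this line. Wt1 went from 0.429 and 0.101 TPM to 15.3 and 10.6 TPM, a difference of 5.30 ± 0.48 (adjusted p = 0.00228 by limma). Tmem54 went from 0.851 and 0.670 TPM to 21.6 and 12.4 TPM, a difference of 4.27 ± 0.44 (adjusted p = 0.00384 by limma). Thus 3 of 3 genes were called higher, where 2.73% of all genes were called higher and 2.0% lower. The Tmem54 call did not hold without control ESC replicate 1 (adjusted p = 0.0830), control ESC replicate 2 (0.0681) or control EB replicate 1 (0.0684), and the Wt1 call did not hold without control EB replicate 1 (0.0549).

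In point mutant ESCs all 3 genes were already raised. Of them, only Wt1 is in the study's lists of genes grouped by RING1B binding. It is in Group 3, where binding fell from ESCs to EBs. Car4 was at 4.50 and 4.17 TPM, Wt1 at 4.95 and 4.51 TPM, and Tmem54 at 4.88 and 10.05 TPM, each above both control ESC libraries. The mean was 5.00 times that of controls for Car4, 17.9 times for Wt1 and 9.82 times for Tmem54. The differences were 2.20 ± 0.22 for Car4 (SE, limma adjusted p = 0.00925), 3.89 ± 0.48 for Wt1 (adjusted p = 0.0153) and 3.05 ± 0.44 for Tmem54 (adjusted p = 0.0234). All 3 of 3 were called higher, where 2.34% of genes were called higher and 0.197% lower, and the median of all genes was shifted by 0.12. These calls were fragile with 2 libraries a group. Tmem54 lost its call without any 1 of the 8 libraries (adjusted p from 0.0781 to 0.169), Wt1 without any but control ESC replicate 1 (0.0623 to 0.139 where lost), and Car4 without either control ESC library, mutant ESC replicate 1 or control EB replicate 1 (0.0514 to 0.0757). Of the other lists, 7 of 10 epithelial markers were also called higher in these mutant ESCs, with a median difference of 1.87, and the stage score was -4.50 and -4.32 against -5.29 and -5.11 in control ESCs. Their part in the differences was not tested.

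In point mutant EBs all 3 estimates were below those of control EBs, and 1 of the 3, Car4, was called. Whether the genes differed from each other was not tested. Car4 was at 21.5 and 21.2 TPM, 0.196 times the control EB mean, and fell by 2.33 on the log2 scale with an SE of 0.22 (limma adjusted p = 0.00902), where 0.764% of genes were called lower and 3.76% higher. Without mutant ESC replicate 1 or 2 the limma adjusted p was 0.0518 or 0.0516. Wt1 was at 6.58 and 5.60 TPM, below both control EB libraries, with a difference of -1.06 ± 0.48 (limma adjusted p = 0.268). Tmem54 was at 9.67 and 15.1 TPM and overlapped the controls, with a difference of -0.44 ± 0.44 (limma adjusted p = 0.631). Within the mutant, Car4 was the 1 member called higher in EBs than in ESCs, by 2.27 ± 0.22 (SE, limma adjusted p = 0.0184), where 0.0493% of genes were called higher and 0.0838% lower, and the call was lost without any 1 of the 4 control libraries or the 2 mutant ESC libraries (0.0587 to 0.137). Wt1 and Tmem54 were at 0.36 ± 0.48 and 0.78 ± 0.44 in the same comparison (limma adjusted p of 0.810 and 0.588).

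The mutant and control changes from ESC to EB differed by -4.53 ± 0.31 for Car4 on the log2 scale (SE, limma adjusted p = 0.00904), and Car4 was the only gene of 20279 called lower in this test (0.00493%, with 0.00493% called higher). The Car4 call held without each of the 8 libraries (adjusted p from 0.0205 to 0.0466). The estimates for Wt1, -4.94 ± 0.68, and Tmem54, -3.49 ± 0.63, were not called (limma adjusted p of 0.107 and 0.226). Naive and formative markers moved beside these values. In mutant less control EBs, 3.76% of all genes were called higher and 0.764% lower. There 5 of 7 formative markers were called lower and 3 of 10 naive markers higher, and the stage score was -2.57 and -2.52 in mutant EBs against -0.05 and 0.90 in control EBs. Also 4 of 12 feeder fibroblast markers, 3 of 8 primitive streak and mesoderm markers and 2 of 10 primitive and visceral endoderm markers were called higher in mutant EBs. The sums did not overlap, at 56.2 to 76.1 TPM in control and 103.0 to 116.3 TPM in mutant EBs for feeder markers, 8.79 to 11.4 and 21.9 to 31.6 TPM for mesoderm, and 24.1 to 30.2 and 50.2 to 52.5 TPM for endoderm. The part of these in the Car4 result was not tested.

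**Figure D3:**
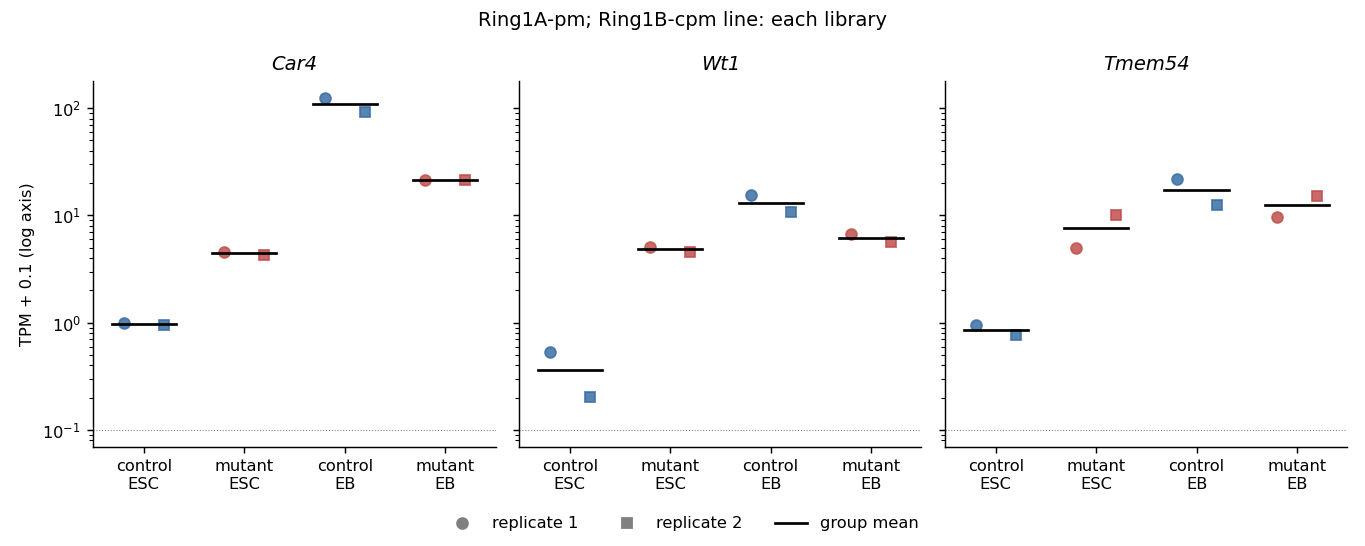
Level of Car4, Wt1 and Tmem54 in each of the 8 libraries of the Ring1A-pm; Ring1B-cpm line, as TPM + 0.1 on a log axis. Points are libraries and black bars are means of 2. For each gene mutant ESCs lie above control ESCs, and the gap between ESCs and EBs is narrower in the mutant.

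In the Ring1A/B line the labels and the deposited names conflict in 4 of 8 libraries. The libraries labelled control ESC held 0.449 and 0.384 TPM of Car4, those labelled mutant ESC held 147.8 and 162.1 TPM, those labelled control EB held 2.86 and 2.39 TPM, and those labelled mutant EB held 60.98 and 60.9 TPM. In the deposited names the second pair is called control EB and the third mutant ESC. The stage score was 1.83 and 1.83 in the second pair and -4.81 and -4.69 in the third. Wt1 was at 0.142 and 0.215 TPM, 13.2 and 13.3 TPM, 6.24 and 6.27 TPM, and 10.98 and 10.8 TPM when the labels are taken in that order. Tmem54 was at 0.250 and 0 TPM, 30.96 and 29.1 TPM, 3.04 and 4.24 TPM, and 11.5 and 12.8 TPM. The 4 pairs did not overlap for Car4, Wt1 or Tmem54. Tested by label with limma, 3 of 3 genes were called higher in libraries labelled mutant than control ESC (25.2% of genes were called higher and 23.6% lower), 3 of 3 in libraries labelled control EB than control ESC (28.6% higher, 14.6% lower), 3 of 3 in libraries labelled mutant than control EB (19.3% higher, 14.1% lower), and Car4 was called lower in libraries labelled mutant EB than mutant ESC (19.9% lower, 36.6% higher). Without either library labelled control EB, or either labelled mutant EB, the members called in the mutant against control EB comparison went from 3 to 1. These tests follow labels that conflict with deposited names and stage scores, so no effect of RING1B loss is read from them.

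In the Pcgf2/4 and Pcgf6 lines, and in the mutant groups of the Pcgf3/5 line, the labels grouped high and low libraries together. In the Pcgf2/4 line every labelled group paired 1 library of 2.34 to 4.46 TPM of Car4 with 1 of 82.7 to 96.8 TPM. By label, 0 of 36 limma tests of the members in these 3 lines passed an adjusted p of 0.05 (0.343 to 1), with standard errors of 1.61 to 3.10, and 2 had an unadjusted p under 0.05. With high and low libraries mixed within groups of the fit, these tests cannot show an effect of PCGF loss, and nothing is read from them. Between 0.0% and 0.0401% of genes were called higher in these comparisons, and in the Pcgf3/5 line 0.02% were called lower by label in control EBs against control ESCs, 0.02% higher and 0.02% lower in mutant against control ESCs, and 0.0301% lower in mutant against control EBs. In the Pcgf3/5 line the libraries labelled control held 0.321 and 0.149 TPM of Car4 at the ESC stage and 61.6 and 85.7 TPM at the EB stage, while each labelled mutant group held 1 low and 1 high library and shared the same fit. By deposited name, Car4, Wt1 and Tmem54 separated the stages without overlap within each of these 3 lines, and they are given as ranges with no test. In the Pcgf2/4 line, Wt1 was at 0.0697 to 0.347 TPM in libraries named ESC and at 9.20 to 15.2 TPM in those named EB, and Tmem54 at 1.20 to 3.21 TPM and 18.3 to 25.2 TPM. In the Pcgf3/5 line, Car4 was at 0.149 to 1.01 TPM in libraries named ESC, at 52.6 and 61.6 TPM in those named control EB, and at 85.7 and 87.0 TPM in those named mutant EB. In the Pcgf6 line, Car4 was at 2.22 and 2.35 TPM in libraries named control ESC, at 10.03 and 10.6 TPM in those named mutant ESC, at 67.9 and 73.5 TPM in those named control EB, and at 32.1 and 55.0 TPM in those named mutant EB. Wt1 in these 4 named groups was at 0 and 0.198 TPM, 0.873 and 1.37 TPM, 7.03 and 8.51 TPM, and 9.01 and 11.8 TPM. Pcgf6 transcripts were at 67.05 to 104.6 TPM in libraries named control and 34.7 to 46.3 TPM in those named mutant. By label they overlapped, at 34.7 to 91.5 TPM in control and 36.95 to 104.6 TPM in mutant. Pcgf5 in the Pcgf3/5 line was at 21.33 to 24.72 TPM in libraries named control and 15.62 to 21.3 TPM in those named mutant. By label it overlapped, at 15.62 to 24.72 TPM in control and 19.5 to 21.81 TPM in mutant. By name, Rnf2, Pcgf2, Bmi1 and Pcgf3 were not lower throughout in the mutant libraries of their lines.

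Across all 6 lines the 30 libraries named EB held 21.2 to 162.1 TPM of Car4 and the 29 named ESC held 0 to 10.6 TPM. These ranges of Car4 did not overlap. Those of Wt1 did, with 0 to 6.27 TPM in libraries named ESC and 5.60 to 45.2 TPM in those named EB, and the top of the first range was a Ring1A/B library named mutant ESC. Those of Tmem54 did as well, with 0 to 10.05 TPM and 9.24 to 44.2 TPM, and the top of the first range was a point mutant ESC library.

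**Figure D4:**
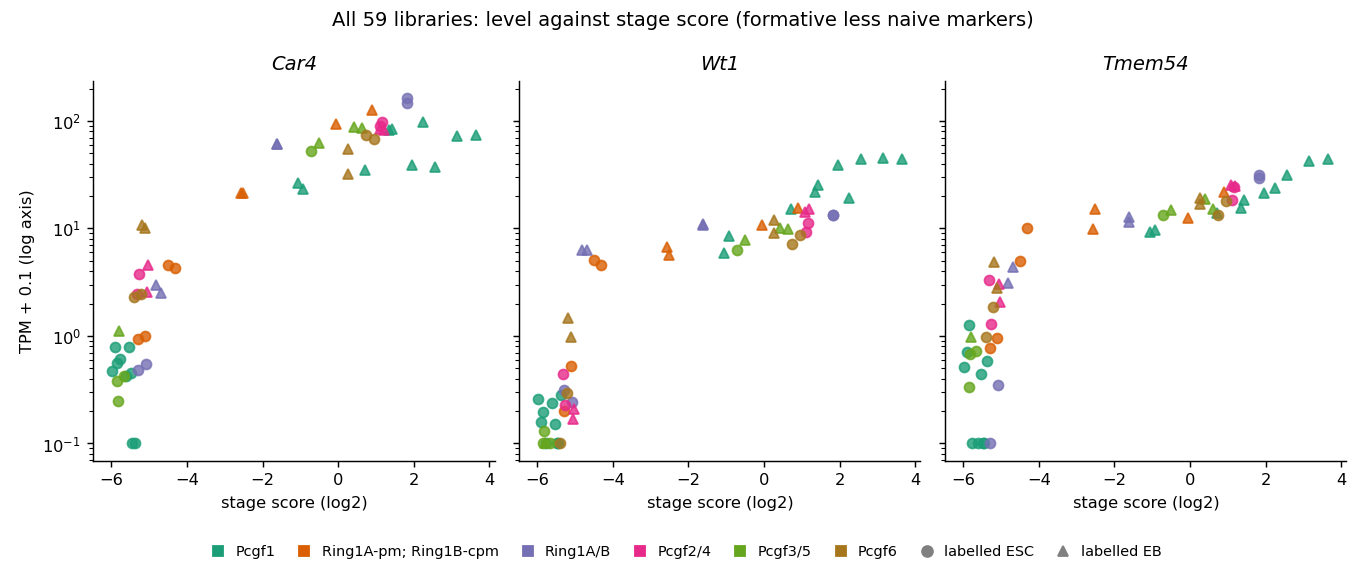
Level of each gene, as TPM + 0.1 on a log axis, against the stage score (log2 units, formative less naive markers) in all 59 libraries. Colour is the line and the symbol is the labelled stage. Libraries of low score hold less of each gene than most others, whatever their label. The highest of them, at 6.27 TPM of Wt1 and 10.05 TPM of Tmem54, exceed the lowest of the others, at 5.60 and 9.24 TPM. Circles and triangles mix in the lines whose labels and deposited names conflict.

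Car4 belongs to a family of 16 carbonic anhydrase genes, and it was not the only member of the family to move. In the Pcgf1-KO EBs less KO ESCs, 5 of 15 family members tested were called higher and none lower, where 8.13% of all genes were called higher and 10.2% lower, with a median of 0.14 against 0.00 over all genes. They were Car4, Car2 (2.41 ± 0.36), Car3 (3.11 ± 0.55), Car7 (2.14 ± 0.67) and Car14 (1.72 ± 0.51). Car2 is the abundant cytosolic enzyme and Car14 is a membrane-spanning enzyme with its active site outside the cell, like that of Car4. In control EBs less control ESCs, 6 of 15, Car4 among them by the way it was chosen, were called higher and 3 lower, where 11.5% and 13.4% of all genes were, with a median of 0.64 against 0.00 over all genes and with Car4, Car2 (3.22), Car14 (3.05) and Car15 (-3.44) the largest. Car2 was the second most abundant of the family in control EBs, at 34.3 ± 16.2 TPM, and in KO EBs its mean of 33.4 ± 16.2 TPM was about that of Car4, 32.1 ± 6.98 TPM. Car14 in control EBs was at 13.1 ± 4.82 TPM. In KO less control EBs the 1 family member called by limma was Car14, lower by a difference of -2.87 ± 0.51 (adjusted p = 0.00592), from 13.1 TPM to 1.92 ± 1.34 TPM. In that comparison 0.874% of all genes were called lower. In the Ring1A-pm; Ring1B-cpm line, Car4, Car2, Car3 and Car14 were the 4 of 16 called higher in control EBs than ESCs, by 6.80, 2.21, 3.08 and 5.61, where 2.73% of all genes were. Car4 and Car2 (-1.61 ± 0.16, limma adjusted p = 0.00990) were the 2 called lower in mutant EBs, where 0.764% of all genes were. Of 13 bicarbonate transporter genes, whose products carry the ion that carbonic anhydrases make, 1 was called higher and 1 lower in control EBs less ESCs of the Pcgf1 line, namely Slc4a3 (1.34) and Slc4a9 (-2.24), and 0 of 13 in KO EBs less KO ESCs by limma.

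**Figure D5:**
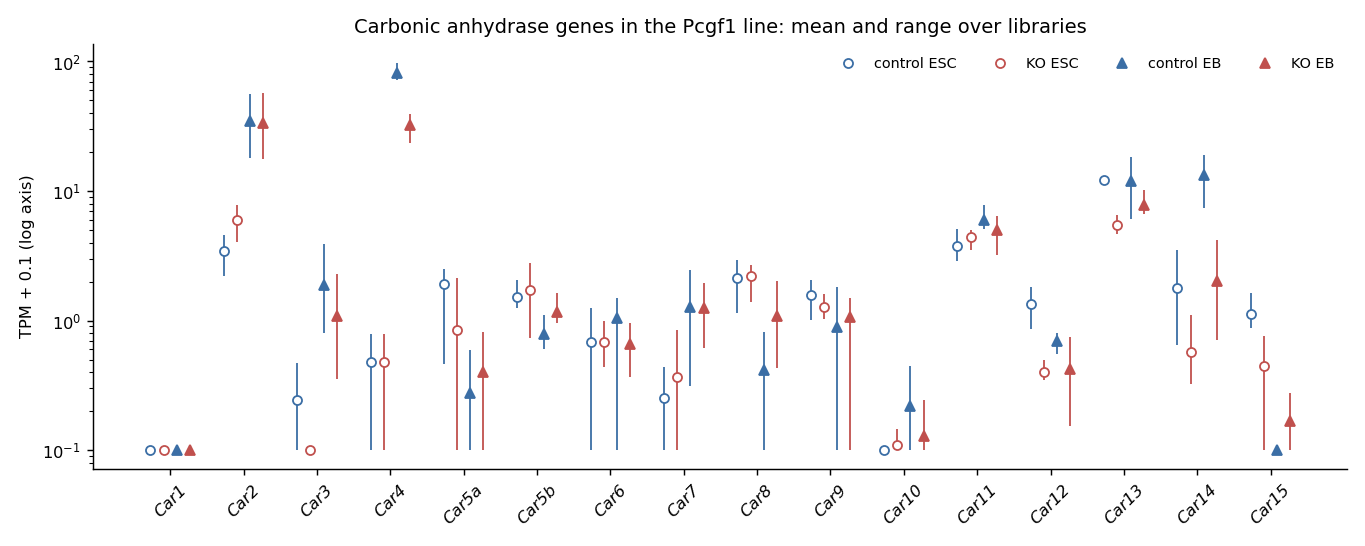
Carbonic anhydrase genes in the Pcgf1 line. Points are group means, vertical lines the range over libraries, and the vertical axis is TPM + 0.1 on a log axis. Car4 goes from below 1 TPM in ESCs to the top of the family in control EBs, and Car2 and Car14 have the next highest differences in controls.

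Genes tied to Wt1 were described from short lists. In KO EBs less KO ESCs, the comparison used for them unless another is named, 8.13% of all genes were called higher and 10.2% lower. Of 5 genes for WT1 partner proteins, Basp1, a corepressor that binds WT1, rose in KO EBs less KO ESCs by 1.83 ± 0.16 and Wtap, part of the complex that methylates adenosine in RNA, was lower by a difference of -0.57 ± 0.11. Of 8 known WT1 targets, 3 were called higher and 1 lower in that comparison, with a median of 0.46 against 0.00. The higher ones were Nphs1 (1.33), Bcl2 (1.32) and Spry1 (0.88), and the lower one was the growth factor gene Areg (-2.73). In control EBs less ESCs of the Ring1A-pm; Ring1B-cpm line 5 of 8 were called higher, among them the podocyte surface gene Podxl (1.93 ± 0.30), where 2.73% of all genes were called higher, and 2 of 8, Areg (2.82 ± 0.49) and Wnt4 (2.70 ± 0.47), were called higher in mutant than control ESCs, where 2.34% of all genes were. The EGR genes encode zinc finger factors that bind sites much like those of WT1. In KO EBs less KO ESCs, 3 of 4 were called lower, Egr1 by a difference of -5.60 ± 0.36, Egr2 of -5.92 ± 0.46 and Egr3 of -3.61 ± 0.37. Of 10 markers of the mesothelium, podocytes and gonad, where Wt1 is best known, 1 was called higher, Nphs1, which is also in the list of targets, and 1 lower, the mesothelial surface gene Msln (-4.12 ± 0.71), with a median of 0.00. Their summed level was 35.8 to 60.5 TPM in KO ESCs and 52.3 to 110.3 TPM in KO EBs. Formative markers, in contrast, were called higher in 7 of 7 cases, with a median of 4.16.

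The genes beside the members were compared in the same fit. None of the 4 neighbours of Car4 (Myo19, Znhit3, Usp32 and 1700125H20Rik) was called in the 4 comparisons of either of the 2 lines. Among the neighbours of Wt1, Pax6, which encodes a transcription factor of eye and brain, lies 495.3 kb beyond its end and was called higher in KO EBs than KO ESCs by 2.83, from 0.090 TPM to 1.40 TPM. Rcn1, between Wt1 and Pax6, was lower by a difference of -0.52 in that comparison. Wt1os, the antisense RNA named after Wt1, was at a mean of 0 TPM in control ESCs and 1.16 ± 0.71 TPM in control EBs, and 1.69 on the log2 scale higher in KO EBs than KO ESCs (limma adjusted p = 0.074). Hpca, a neuronal calcium sensor gene, overlaps the end of Tmem54 by 57 bases on the other strand, and whether counting used strand is not given in the sources used here. Hpca was higher in KO EBs than KO ESCs by 1.39, with means of 5.40 and 2.08 TPM.

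Over the 59 libraries Pearson's r of log2(TPM + 0.1) was 0.93 between Car4 and Tmem54, 0.92 between Wt1 and Tmem54 and 0.90 between Car4 and Wt1. Stage separates these points into 2 groups, so the values are a description of that split. The members were chosen for a high rise between the stages in libraries included here, so high r among them was favoured in advance. Tmem54 was the gene most like Car4 among 16214 compared, followed by Sepp1, Mdk, Ccno and Bcl11a (0.92 to 0.91). Those most like Wt1 were Zfp467, Vrtn, Gramd3, Ccno and Crmp1 (0.95 to 0.93), and those most like Tmem54 were Car4, Wt1, Prss44, Slmo1 and Crmp1 (0.93 to 0.90). Within groups the likeness was uneven. Over deviations from group means in the 19 libraries of the Pcgf1 line, r was 0.64 between Wt1 and Tmem54, 0.21 between Car4 and Tmem54 and 0.06 between Car4 and Wt1. With a pseudocount of 1 the value for Wt1 and Tmem54 was 0.81 and that for Car4 and Wt1 was 0.34. In the 10 EB libraries alone it was 0.89, 0.36 and 0.54. The genes most like each member in the 19 deviations were 4933412E12Rik, Rhox9, Ramp2, Kcnn4 and Snord99 for Car4 (0.94 to 0.88), Pak3, Neurod1, Usp51, 2810459M11Rik and Abca4 for Wt1 (0.88 to 0.85), and Isy1, Car7, Efna4, Mmd2 and Zbtb8a for Tmem54 (0.84 to 0.81). With a pseudocount of 1 the r of Rhox9 with Car4 was 0.58 and that of Snord99 was 0.54. The libraries share series of identifiers, which move with Wt1 and Tmem54 as given above.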

How the data were processed

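Poly(A) RNA-seq libraries were made with the NEBNext Ultra II kit. Per the labels and the study's methods, the authors aligned single-end reads to mm9 with STAR 2.5.2b and counted reads on exons, and DESeq2 is named among their tools. The deposited values are TPM per gene; the step from counts to TPM is not given in the sources used here, and depth is unknown. Each library summed to 1000000. Groups follow the labels of each sample and not the names of the files. The mutant EB library titled replicate 4 of the Pcgf1 line is listed as replicate 5 in another label, and the title was used. Each line was fitted separately in limma 3.58.1 (R 4.3.3, trend, 4 groups) on log2(TPM + 0.1) for genes above 0 in at least 1 library, two-sided, with Benjamini-Hochberg adjustment over all genes and a threshold of 0.05. Same-numbered libraries of the Pcgf1 line deviated together (r from 0.317 to 0.653 in 27 of 27 pairs over 13400 genes). Differently numbered ones had r from -0.508 to 0.621, above 0.1 in 26 of 108 pairs. Some numbers share a series of identifiers, so equal numbers are not shown to mark matched cultures. Exact permutation tests used scipy 1.17.1 and took libraries as independent, without their replicate numbers. The fit was tested on simulated data. Alternatives were leaving out each library, fitting only the compared groups, a replicate block, a pseudocount of 1, quantile normalization, a filter that keeps genes with a group mean of 1 TPM or more, and scaling by median of ratios. Positions come from GENCODE vM1. The members and gene lists were chosen with earlier results of these data known. Named genes were the members, up to 4 genes per list by size of difference among those called, 2 neighbours on each side, 5 genes of highest r, the top 8 of the ranking and the targeted genes.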

Additional observations from a re-analysis of the deposited data

Results flagged for a closer look

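In the Ring1A-pm; Ring1B-cpm line the change of Car4 from ESC to EB differed between mutant and control by -4.53 on the log2(TPM + 0.1) scale in a test of the difference itself (limma adjusted p = 0.00904, 2 libraries in each group). Car4 rose from a mean of 0.867 to 109.0 TPM in controls and from 4.34 to 21.3 TPM in the mutant. In no group of 4 or 5 libraries of the Pcgf1 line did a single library of Car4, Wt1 or Tmem54 stand apart from the rest by Dixon's criterion.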

How the results depend on the processing

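The rise of all 3 genes from KO ESCs to KO EBs in the Pcgf1 line passed the threshold under every alternative, with leave-one-out ranges of 5.82 to 6.57 for Car4, 6.43 to 7.15 for Wt1 and 5.05 to 5.96 for Tmem54. With a pseudocount of 1 the control EB less ESC differences that chose the genes were 5.92 for Car4, 4.79 for Wt1 and 4.53 for Tmem54. With a replicate block the KO less control EB value of Car4 was -1.37 (adjusted p = 0.0595), and the block changed no call. For KO less control EBs, 1 member (Car4) was called with a pseudocount of 1 (-1.34), with only the compared groups (-1.37) and with only replicates 1, 4 and 5 (-1.65), against 0 in the main analysis; the last subset and that of replicates 1 to 3 were chosen after seeing the data. KO less control ESC values near 0 changed sign with only replicates 1 to 3 (Car4 -0.094, Tmem54 -0.061) and with only replicates 1, 4 and 5 (Car4 -0.22, Wt1 0.70), and for Car4 with libraries left out (-0.58 to 0.56). The change of Wt1 in KO less that in control was 0.27 with only replicates 1 to 3. In the Ring1A-pm; Ring1B-cpm line, fitting only the compared groups left 0 members called in each comparison, with control EB less ESC values of 6.80, 5.30 and 4.27, mutant EB less ESC of 2.27 for Car4, mutant less control ESC of 2.20, 3.89 and 3.05, and mutant less control EB of -2.33 for Car4 (adjusted p from 0.0530 to 0.154); fewer samples estimate the error there. A pseudocount of 1 left 0 members in mutant EBs less ESCs (Car4 2.06), and quantile normalization ended the Tmem54 call in ESCs (2.46). Leaving out libraries of this line gave 6.59 to 7.02, 4.60 to 5.997 and 3.87 to 4.66 for control EBs less ESCs, 2.22 to 2.32 for Car4 in mutant EBs less ESCs, 2.14 to 2.25, 3.19 to 4.58 and 2.54 to 3.57 for mutant less control ESCs, and -2.55 to -2.12 for Car4 in mutant less control EBs, with 1 to 3, 0 to 1, 0 to 1 and 0 to 1 members called. Same-numbered libraries of this line had r from 0.106 to 0.381, but with 2 numbers the opposite-numbered values are the same with the sign turned, the labels give no source of pairing, and the block changed no call. By label in the Ring1A/B line, the members lower in mutant EBs less ESCs were 3 with a pseudocount of 1, median-of-ratios scaling or only the compared groups and 2 with the mean TPM filter or quantile normalization, with 1 to 3 under leave-one-out, where the mutant less control EB count was also 1 to 3. In the Pcgf3/5 line 3 members were higher in libraries labelled control EB than control ESC with only those groups fitted. Same-numbered libraries of that line correlated down to -0.790, and with crossed pairing 0 genes were called in either comparison of EBs with ESCs. The causes were not tested. Unknown depth limits what can be said of values below 1 TPM in ESCs, and groups of 2 limit every line but that of Pcgf1.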
